A study of Rattus norvegicus with 6 samples.

Results

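Expression of 41 genes that encode subunits of voltage-gated sodium channels, voltage-gated calcium channels and HCN (hyperpolarisation-activated, cyclic nucleotide-gated) channels was examined in the vestibular sensory epithelium of rats. The members were the protein-coding genes whose symbols mark them as a sodium channel pore or beta subunit (Scn), a calcium channel pore, alpha2delta, beta or gamma subunit (Cacn), or an HCN channel (Hcn), among 32883 genes in all. The L-type pore gene Cacna1d and the beta subunit gene Cacnb2 were left out by the rule and are not described here. The animals were Long-Evans rats, 3 injected with PBS (Control) and 3 with streptomycin (STREP), an aminoglycoside antibiotic that harms the sensory hair cells (HCs). Dosing was under the skin, once daily at 500 mg/kg, and lasted 6 weeks from postnatal day 21. Of the 3 animals of a group, replicate 3 was female and the other 2 male, and no transgene was involved. Each library came from 1 animal and pooled its 2 utricles and 6 cristae, the organs that sense linear and angular acceleration, so it mixes HCs, supporting cells, nerve endings and other cells. In such bulk samples, fewer cells of a type and less RNA per cell cannot be told apart.

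Voltage-gated sodium channels open on depolarisation and carry the upstroke of the action potential, in the vestibular organs chiefly in afferent neurons and their calyx endings. Voltage-gated calcium channels let in the calcium that triggers neurotransmitter release and shapes firing, with a pore subunit that sets the type of current and alpha2delta and beta subunits that help it reach the membrane. HCN channels open on hyperpolarisation, and in vestibular HCs and calyces they carry an inward current that speeds the response of the membrane.

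Total counts ran from 48568191 to 59906048 in Control libraries and from 29333584 to 33744909 in STREP libraries, so every STREP library was shallower than every Control library. A floor of 3 counts came to between 0.0501 and 0.102 CPM (counts relative to the library total) across libraries. Values below are normalised counts, that is, counts divided by the DESeq2 size factor of the library, which are comparable between animals for a gene but not between genes, because they are not scaled to transcript length. Calls are from the DESeq2 Wald test with an adjusted p-value under 0.05 over all tested genes and a fold change over 1.5 in either direction. All 10 HC markers on the list used here had counts, as did all 10 supporting cell markers.

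Among the 41 members, 37 had a count in at least 1 library and 33 were tested, the other 8 being too low for an adjusted p-value. Scn10a and Scn11a, sodium pores known from pain-sensing neurons, and Cacng1 and Cacng3, 2 gamma subunit genes, had 0 counts in every library. A total of 0 in 252366842 counts allows a level of up to 0.0119 CPM, counting error only. A mean of at least 10 normalised counts was reached by 31 members and a mean of at least 100 by 13. The lowest summed raw count of a tested member was 37.

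**Figure D1:**
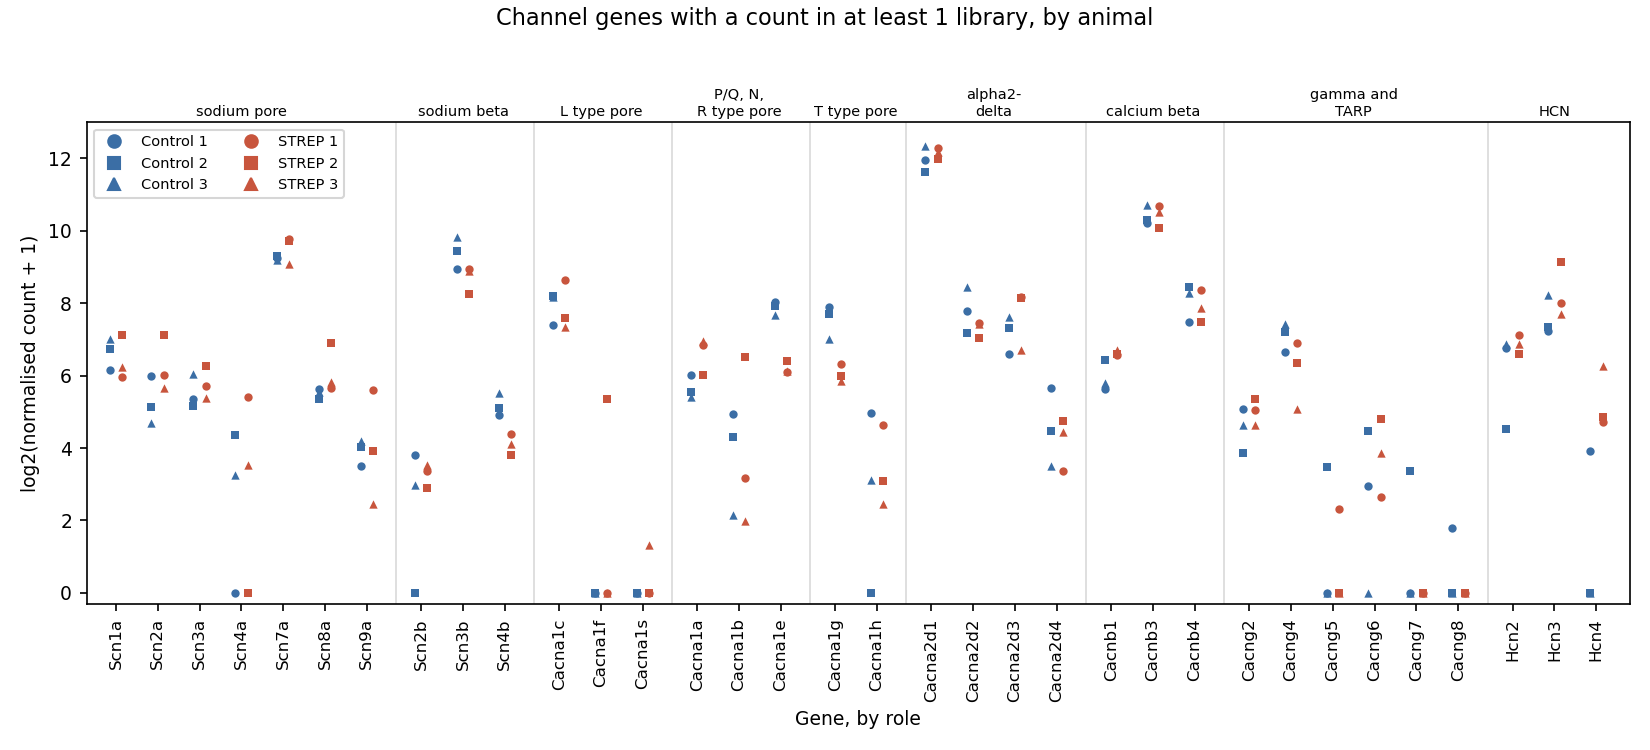
Normalised count of 34 channel genes with a count, as log2(normalised count + 1), in 3 Control (blue) and 3 STREP (red) animals, with genes grouped by role on the x axis and a marker shape for each replicate. STREP values lie below Control values for Cacna1e and Cacna1g, while most other genes have overlapping groups, and points at 0 are libraries without a count.

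DESeq2 called 2 of the 33 tested members, both lower in STREP animals, and 0 higher. This is 6.06% of those tested, beside 3.24% of all 16250 tested genes called in either direction and 1.37% called lower. The genes were Cacna1e, the pore of the R-type calcium current, and Cacna1g, a pore of the low-voltage-activated T-type current. At an unadjusted p-value under 0.05 there were 6 members, 3 lower (these and Scn3b) and 3 higher (Cacna1a, Cacna1f and Hcn4), out of 33, where 12.2% of all tested genes passed. Cacna1f had counts in STREP replicate 2 alone, so its p-value rests on that library. The edgeR quasi-likelihood test called 1 of 29 members, Cacna1e, with 0.844% of the 14928 genes it tested called lower.

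In Control animals Cacna1e reached 259.0, 242 and 202 normalised counts, against 67.9, 84.2 and 68.8 in STREP animals, each in the order of replicates used throughout. Every STREP animal was thus well below every Control animal, and the groups did not overlap. Means were 234.5 ± 29.2 in Control and 73.6 ± 9.17 in STREP (SD, n = 3), which DESeq2 fitted as a log2 fold change of -1.67 with an SE of 0.315, a 95% interval from -2.29 to -1.05 and an adjusted p of 1.63e-05. edgeR gave the same log2 fold change of -1.67 with an adjusted p of 0.0212. Before scaling, the raw counts were 422, 285 and 235 in Control and 51, 78 and 46 in STREP libraries, and with all libraries thinned at random to 29333584 counts the log2 fold change was -1.67 (DESeq2 adjusted p = 4.96e-05).

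Cacna1g reached 238, 209 and 129.0 normalised counts in Control and 78.5, 62.6 and 56.8 in STREP animals. The lowest Control value, that of the female, still lay above the highest STREP value. Means were 192 ± 56.5 in Control and 66.0 ± 11.2 in STREP (SD, n = 3), with a log2 fold change of -1.54 (SE 0.383, 95% interval -2.29 to -0.79, DESeq2 adjusted p = 0.00312). The size of the difference moved little between tests, but the call did not hold in all of them. edgeR gave a log2 fold change of -1.54 with an adjusted p of 0.0679, and DESeq2 gave -1.36 (adjusted p = 0.0742) without Control replicate 1 and -1.48 (adjusted p = 0.0546) without Control replicate 2. With thinned libraries the log2 fold change of Cacna1g was -1.57 (DESeq2 adjusted p = 0.0041).

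**Figure D2:**
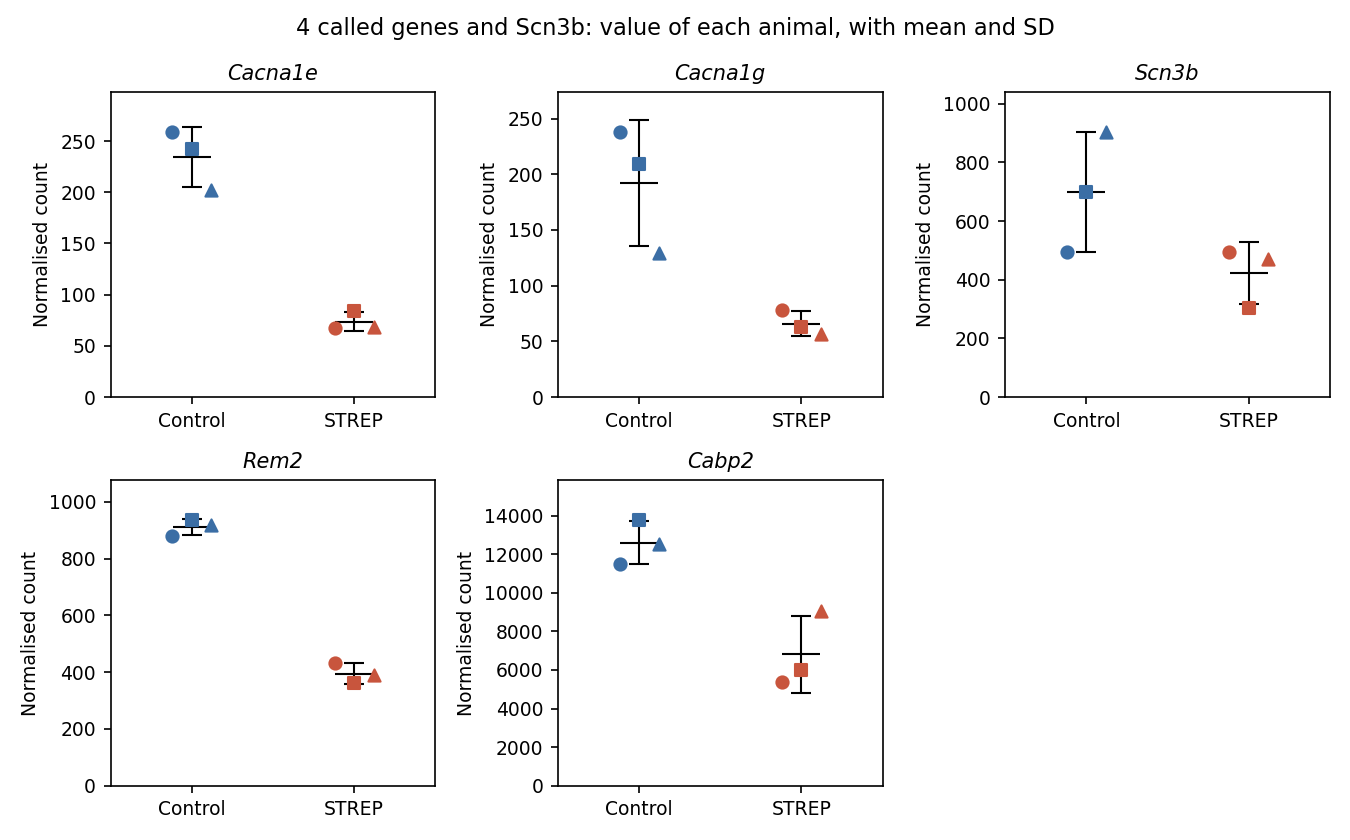
Normalised count of Cacna1e, Cacna1g and the sodium channel beta subunit gene Scn3b (upper row) and of the channel partner genes Rem2 and Cabp2 (lower row), a point for each animal, with the mean and SD of each group of 3 and y axes starting at 0. Control and STREP points are apart for every gene shown except Scn3b, whose lowest Control and highest STREP values both stood at 495 normalised counts.

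The stretches of 250 bases before the transcription start of Cacna1e and of Rem2 are shown because these were the channel gene and the partner gene (below) called lower by both DESeq2 and edgeR, a choice made after their values were seen. Both come from the RefSeq annotation of the GRCr8 build, which is not the build the counts were made on. The Cacna1e sequence is chr13:69444811-69445060 on the minus strand and the Rem2 sequence is chr15:31903722-31903971 on the plus strand, each written 5′ to 3′ along its gene. Capitals mark CANNTG, the E-box core, which reads the same on both strands.
Cacna1e: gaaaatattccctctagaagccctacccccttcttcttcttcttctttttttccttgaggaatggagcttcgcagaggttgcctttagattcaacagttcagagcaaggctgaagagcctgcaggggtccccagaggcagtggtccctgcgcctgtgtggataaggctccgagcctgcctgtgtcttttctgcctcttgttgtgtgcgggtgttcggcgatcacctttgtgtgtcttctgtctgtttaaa
Rem2: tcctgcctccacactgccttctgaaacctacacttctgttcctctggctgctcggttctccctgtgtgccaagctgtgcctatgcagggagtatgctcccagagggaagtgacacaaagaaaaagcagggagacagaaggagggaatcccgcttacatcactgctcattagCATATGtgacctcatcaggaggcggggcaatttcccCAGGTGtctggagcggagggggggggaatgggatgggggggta
The Rem2 stretch held 2 CANNTG matches and the Cacna1e stretch none. Neither held TATAAA (12.9% of 33469 promoters of this length did, on either strand), GGGCGG (30.5%) or CCAAT (34%). CANNTG was found in 65.5% of these promoters. Such a match is only a match of letters. An entry in the same table was found for 26 of the 41 members.

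None of the other calcium channel pores was called. Cacna1a, the P/Q-type pore of many fast synapses, stood at 63.2, 45.9 and 41.3 normalised counts in Control and 114.5, 63.7 and 124 in STREP animals. The STREP values were all higher than the Control values, the nearest pair lying at 63.2 and 63.7. Its log2 fold change was 1.00 (SE 0.464, 95% interval 0.09 to 1.91), but the adjusted p was 0.321.

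Cacna1b, the N-type pore, ranged from 3.44 to 29.5 in Control and from 2.99 to 89.6 in STREP animals, with STREP replicate 2 far above the others. The log2 fold change, 0.97 with an SE of 1.17 (DESeq2 adjusted p = 0.875), turned to -1.65 without that library. Cacna1c, the L-type pore of smooth and cardiac muscle and of neurons, had means of 250.3 ± 70.1 and 249.6 ± 127 normalised counts and a log2 fold change of -0.0024 (95% interval -0.76 to 0.76). That interval leaves room for changes over 1.5-fold in both directions. The second T-type pore tested, Cacna1h, was low, between 0 and 30.1 normalised counts in every library, with a log2 fold change of -0.079 (SE 1.44).

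The other L-type pores hardly had counts, and are named here after their values were seen. Cacna1f, the pore of photoreceptor synapses, had 37 raw counts in STREP replicate 2 and 0 in every other library. Cacna1s, the pore of skeletal muscle, had a single count in all.

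None of the alpha2delta genes, whose products raise the number of calcium channels at the membrane and include the targets of gabapentin, was called. Cacna2d1 was the most deeply counted member and had the narrowest error, with 3938, 3156 and 5171 normalised counts in Control and 5025, 4044 and 4637 in STREP animals. These groups overlapped, and the log2 fold change was 0.16 (SE 0.193, 95% interval -0.22 to 0.54, DESeq2 adjusted p = 0.872). Cacna2d2 had means of 237 ± 103 in Control and 158 ± 24.2 in STREP animals (log2 fold change -0.58, SE 0.37, adjusted p = 0.592). Cacna2d3 had means of 150 ± 51.3 and 226 ± 106 (log2 fold change 0.60, SE 0.438, adjusted p = 0.689), and Cacna2d4 had 26.9 ± 19.99 and 18.7 ± 8.52 (log2 fold change -0.53, SE 0.868, adjusted p = 0.924).

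Among the cytoplasmic calcium channel beta subunits, which bind the pore and modulate its gating, Cacnb3 had the most counts. It stood at 1192, 1250.0 and 1679 normalised counts in Control and at 1659, 1078 and 1476 in STREP animals, and the groups overlapped. Its log2 fold change was 0.032 (SE 0.214, 95% interval -0.39 to 0.45, DESeq2 adjusted p = 0.988). Cacna2d1 and Cacnb3 were the 2 members whose 95% interval lay within a 1.5-fold change either way, which is 0.585 on the log2 scale.

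Cacnb1 stood at 48.5, 85.0 and 55.0 in Control and at 94.5, 95 and 103 in STREP animals, all higher than the Control animals. With a log2 fold change of 0.64 and an SE of 0.423 it did not pass the test (DESeq2 adjusted p = 0.62). Cacnb4, named after its values were seen, had a log2 fold change of -0.17 (SE 0.345), with groups that overlapped.

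The Cacng genes encode the gamma subunit of the muscle calcium channel and its relatives, several of which are better known as transmembrane AMPA receptor regulatory proteins (TARPs). Of the 8 members, 3 were tested and none was called. Cacng4, a TARP, stood at 100.0, 148 and 172 normalised counts in Control and 118.5, 81.0 and 32.9 in STREP animals. STREP replicate 1 lay within the Control range and the other 2 lay below it (log2 fold change -0.85, SE 0.492, DESeq2 adjusted p = 0.517). Cacng2 and Cacng6, the other 2 tested, had log2 fold changes of 0.45 (SE 0.692) and 0.72 (SE 1.37). In the RefSeq gene order Cacng4 lies between Cacng1, which had no count, and Cacng5, which had 12 raw counts in Control replicate 2 and 3 in STREP replicate 1. Cacng7 and Cacng8, also named after their values were seen, had 11 and 4 raw counts, each in a single Control library.

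**Figure D3:**
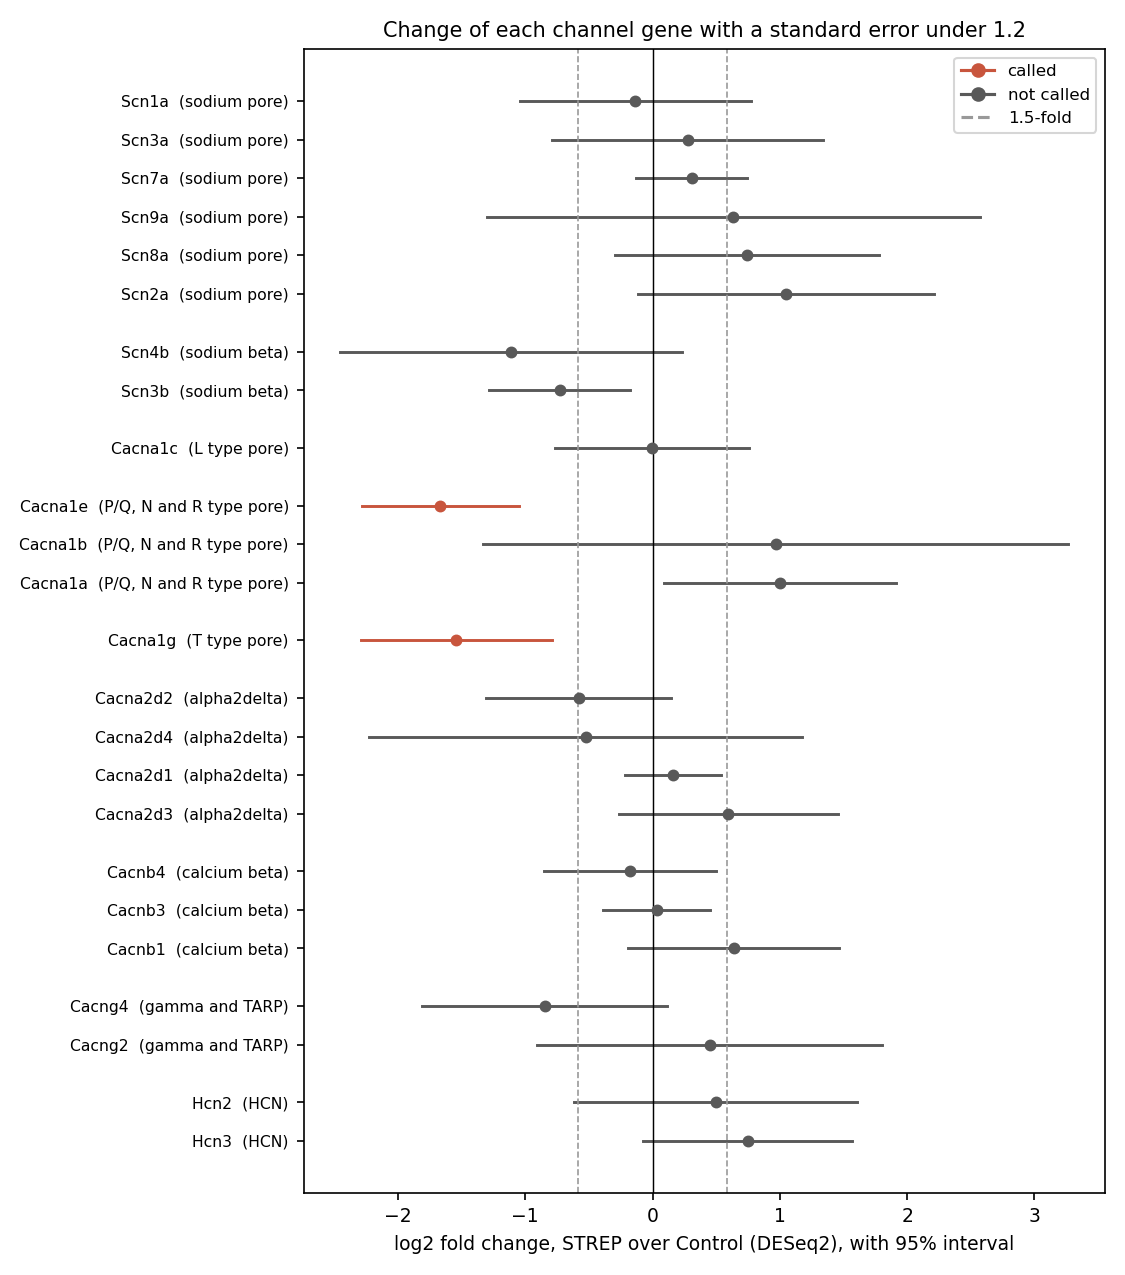
Log2 fold change of STREP over Control from DESeq2 with its 95% interval for 24 tested channel genes with a standard error under 1.2, grouped by role, with 6 genes left out for their width. Dashed lines mark a 1.5-fold change, and the intervals of Cacna1e and Cacna1g (red) lie wholly beyond the line on the lower side.

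No sodium channel pore was called among the 8 tested. Of these, 7 had a log2 fold change above 0 and 1 below, with a range from -0.14 to 1.05 and a median of 0.65. Scn7a, which encodes a sodium-sensing relative of the voltage-gated pores, had the most counts of the group, with 603, 632 and 585 normalised counts in Control and 869, 839 and 544 in STREP animals. STREP replicates 1 and 2 were above all Control animals and STREP replicate 3 was below them, so the groups overlapped (log2 fold change 0.31, SE 0.222, DESeq2 adjusted p = 0.677).

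Scn8a, the main pore of the axon initial segment and nodes of Ranvier in mature neurons, stood at 48.5, 40.0 and 45.6 in Control and 49.3, 119 and 55.4 in STREP animals. All STREP values were higher, by little except in replicate 2, and the log2 fold change was 0.74 (SE 0.528, adjusted p = 0.672). Scn2a, a pore of early and unmyelinated axons, stood at 62.0, 34 and 24.9 in Control and 63.9, 137 and 49.4 in STREP animals (log2 fold change 1.05, SE 0.592, adjusted p = 0.498). Here the groups overlapped and replicate 2 was again the highest STREP library.

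Scn1a, a pore of fast-spiking neurons, had means of 101 ± 28.9 in Control and 91.0 ± 40.5 in STREP animals (log2 fold change -0.14, SE 0.463). Scn3a, a pore most used in development, had 46.7 ± 16.4 and 56.3 ± 18.5 (log2 fold change 0.28, SE 0.543). For Scn9a, a pore of peripheral sensory neurons, values ran from 10.4 to 17.2 in Control and from 4.49 to 47.9 in STREP animals (log2 fold change 0.63, SE 0.988), a STREP range that enclosed the Control range. The last tested pore, Scn4a of skeletal muscle, named after its values were seen, had 0 counts in Control replicate 1 and STREP replicate 2 and at most 41.3 normalised counts elsewhere.

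Several sodium pores are similar in sequence, and RSEM divides reads that match more than 1 gene among them, so the split between such genes is uncertain. In RefSeq order Scn3a lies next to Scn2a, and Scn1a, Scn9a and Scn7a follow each other. Scn10a and Scn11a, which had no counts, have a single gene between them.

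Of the 4 sodium channel beta subunits, which modulate gating and also act in cell adhesion, none was called. Scn3b had the most counts of the 4, at 495, 700.5 and 904 normalised counts in Control and 495, 302 and 470 in STREP animals, groups that touched at 495. Means were 699.9 ± 204 and 422 ± 105 (SD, n = 3), the log2 fold change was -0.73 (SE 0.282, 95% interval -1.28 to -0.18), and the adjusted p was 0.162 with DESeq2 and 0.274 with edgeR. The threshold was passed without Control replicate 1 (log2 fold change -0.93, DESeq2 adjusted p = 0.0458), and in no other fit.

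Scn4b, which is known for its part in resurgent sodium current, was low, at 28.8, 33.1 and 44.7 in Control and 19.97, 13 and 16.5 in STREP animals. The STREP values were all lower, on raw counts of 11 to 15, and the log2 fold change of -1.11 (SE 0.685) did not pass (adjusted p = 0.563). Scn2b, which neighbours Scn4b and is named after its values were seen, had at most 21 raw counts in a library.

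The 4 HCN members were all tested, and none was called. Hcn2, a channel of neurons and of the calyx, stood at 107, 22.1 and 117 in Control and 138, 95 and 115 in STREP animals, with Control replicate 2 apart (log2 fold change 0.50, SE 0.567, adjusted p = 0.855).

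Hcn3 had the most counts of the 4, at 148, 162 and 301.0 in Control and 254, 565 and 206 in STREP animals. These groups overlapped, with STREP replicate 2 the highest (log2 fold change 0.75, SE 0.418, adjusted p = 0.489). Hcn4, best known as the pacemaker channel of the heart, stood at 14.1, 0 and 0 in Control and 25.3, 28.1 and 76.3 in STREP animals, from raw counts of at most 51. Its STREP values were all higher, but the adjusted p was 0.212 (log2 fold change 3.16, SE 1.3). Hcn4 passed the threshold without Control replicate 1 (DESeq2 adjusted p = 0.000338), where both Control values left are 0 and the fitted fold change is no bound.

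Over all tested members, 7 (21.2%) had groups that did not overlap, 3 with all STREP values lower (Cacna1e, Cacna1g and Scn4b) and 4 with all higher (Cacna1a, Scn8a, Cacnb1 and Hcn4), beside 17.8% of all tested genes. The median log2 fold change of the 31 members with a mean of at least 10 was 0.31, beside 0.0057 for the 14957 genes at that level. This median depended on the level. The 18 members between 10 and 100 had a median of 0.64, where all genes had 0.030, and the 13 members at 100 or more had a median of -0.17, where all genes had 0.0043. Errors were wide for this family, with a median SE of 0.528 beside 0.223 for all genes at a mean of at least 10, both on the log2 scale.

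STREP replicate 2 gave the highest value for 11 of the 33 tested members (33.3%), beside 18.3% of all tested genes. These included 5 of the 8 sodium pores, among them Scn1a, Scn2a, Scn3a and Scn8a. Without STREP replicate 2, 2 members were called, as in the full fit, and the median log2 fold change was 0.17. Among the sodium pores, that fit gave log2 fold changes of -0.57 for Scn1a, 0.48 for Scn2a, -0.015 for Scn3a and 0.22 for Scn8a. It gave 0.22 for Scn7a and 0.88 for Scn9a, whose highest values were in STREP replicate 1.

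**Figure D4:**
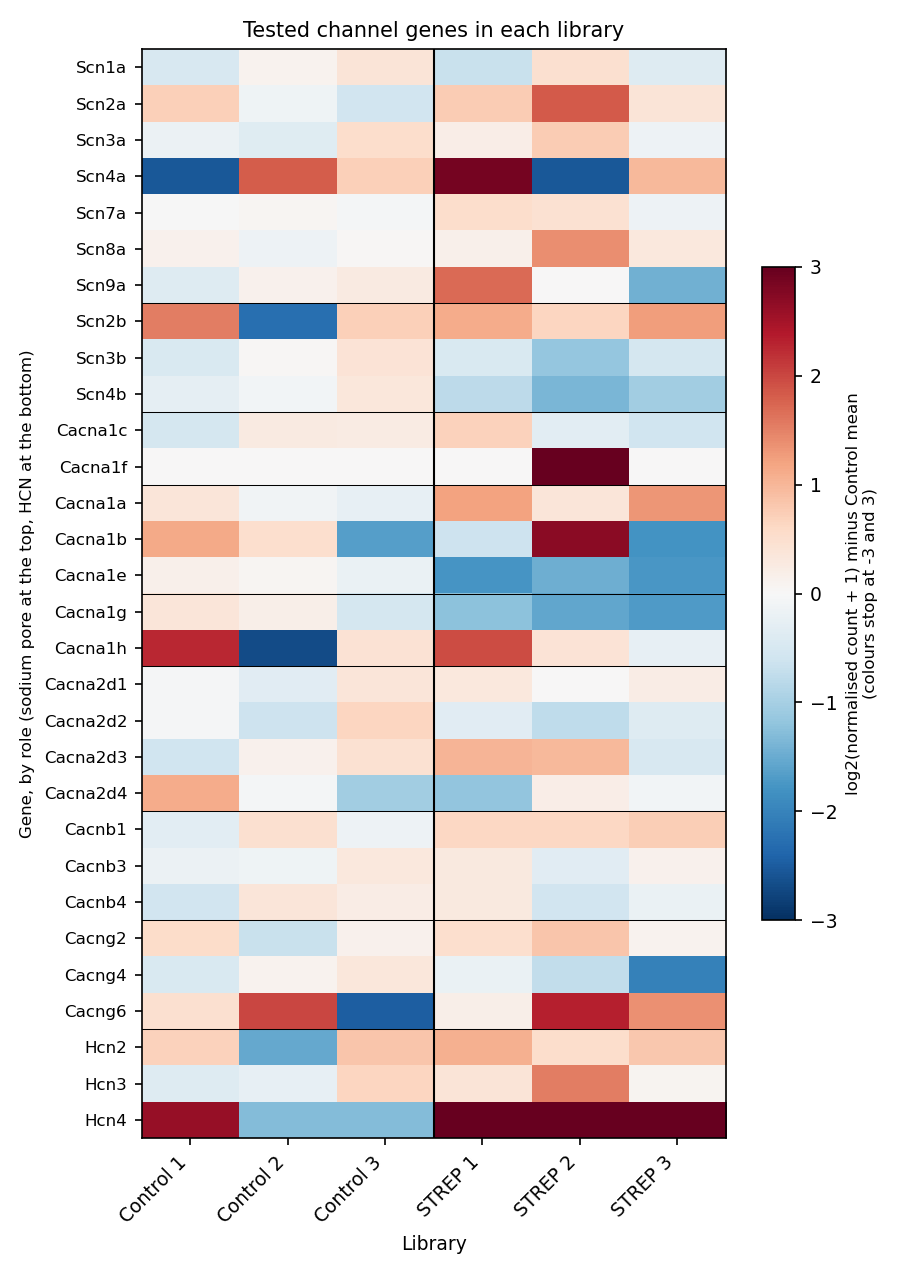
Deviation of 30 tested channel genes in each library from the Control mean, on the log2(normalised count + 1) scale, with genes in rows by role, libraries in columns and colours stopping at -3 and 3. Rows for Cacna1e and Cacna1g are blue in all 3 STREP columns, and the STREP 2 column holds the highest value of 9 rows.

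Genes whose products bind, traffic or regulate these channels were taken from a list of 58, of which 54 symbols were matched, to 55 rows with 52 tested. DESeq2 called 2 lower and 1 higher, 5.77% of those tested, beside 3.24% of all tested genes called in either direction. The largest of these 3 differences was that of Rem2, an RGK-family GTPase that holds down calcium currents, at 880.0, 935 and 917 normalised counts in Control and 434, 361 and 390.4 in STREP animals. The groups lay far apart relative to their SDs (means 911 ± 28.0 and 395 ± 36.9, log2 fold change -1.21, SE 0.178, adjusted p = 3.73e-09 with DESeq2 and 0.00443 with edgeR).

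Cabp2, a calmodulin-like calcium sensor that keeps L-type channels of HCs available, stood at 11511, 13760.0 and 12542 in Control and 5364, 5973 and 9077 in STREP animals. All STREP values were lower, with a log2 fold change of -0.89 (SE 0.198, adjusted p = 0.000495 with DESeq2 and 0.0501 with edgeR).

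The other 49 tested partner genes were not called in the fit of all animals. The 50 rows with a mean of at least 10 had a median log2 fold change of -0.21, beside 0.0057 for all such genes. Calm2 (calmodulin) and Atp1b3 (a sodium pump subunit) were among the highest counts on the list. The larger of 2 rows named Calm2 had means of 78647 ± 13391 and 57712 ± 26350 (log2 fold change -0.45, SE 0.261, adjusted p = 0.524). That row was called lower in males alone (log2 fold change -0.82, DESeq2 adjusted p = 0.00179). It was also called lower without STREP replicate 3 (-0.87, DESeq2 adjusted p = 0.000188), and in no other fit. Atp1b3 had means of 27623 ± 5878 and 29525 ± 9055 (log2 fold change 0.10, SE 0.227).

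Cell type markers were measured in the same libraries, since a pooled tissue can shift in its make-up. Of the 10 HC markers, Tmc2, a mechanotransduction channel subunit, was called lower (log2 fold change -1.71) and Gfi1, an HC transcription factor, higher (1.2). Every marker on this list except Gfi1 had a log2 fold change below 0, and the median was -0.26. Myo7a (-0.49) and Lhfpl5 (-0.45) each had a DESeq2 adjusted p of 0.016 but did not reach 1.5-fold. The summed level of this list ran from 82098 to 86839 normalised counts in Control and from 70395 to 84545 in STREP animals, ranges that overlapped, and none of its markers was at 0. Of the 4 type I HC markers matched, 3 were called lower, Kcna10 (-1.56), Pvalb (-1.44) and Atp2b2 (-0.93), and the list summed to 264211 to 367453 in Control and 166721 to 316288 in STREP. Most of that sum was Spp1 (-0.43, not called), at 245715 to 344687 in Control and 158817 to 308181 in STREP. For Kcna10, Pvalb and Atp2b2, all STREP values were lower than all Control values. Of the 5 type II HC markers, 1 was called lower, Kcnh7 (-1.66), with sums of 13653 to 14421 and 13076 to 16645. Log2 fold changes of the others were -0.059 for Mapt, 0.040 for Anxa4, 0.078 for Sox2 and 0.42 for Calb2. The median over the list was 0.040, and all STREP values of Calb2 were higher than its Control values.

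Of 10 neuron markers, Tubb3 was called higher (1.28), and the list summed to 4445 to 5013 in Control and 4296 to 4579 in STREP. Elavl3 (1.66), Nefh (1.2), Elavl4 (1.14) and Prph (0.66) also had log2 fold changes above 0. Those of Snap25 (-0.031), Nefm (-0.17), Nefl (-0.29), Rbfox3 (-0.43) and Stmn2 (-1.61) were below 0, and the median over the list was 0.32. Of 10 Schwann cell markers, Prx was called lower (-0.68) and Sox10 higher (0.95), with sums of 439448 to 630202 and 280353 to 632128. All Schwann cell markers except Sox10 had a log2 fold change below 0, with a median of -0.36 over the list. No marker was called on the lists for supporting cells, skeletal muscle, smooth muscle and pericytes, endothelium, macrophages, fibroblasts, melanocytes and dark cells. The dark cell list summed to 47128 to 53092 in Control and 33199 to 40031 in STREP, without overlap, whereas the sums of the others overlapped. Of all markers matched, only the muscle gene Tnni2 was at 0 in every library. The part of these markers, and of the lower depth of the STREP libraries, in the lower values of Cacna1e and Cacna1g was not tested beyond the thinned libraries given above.

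**Figure D5:**
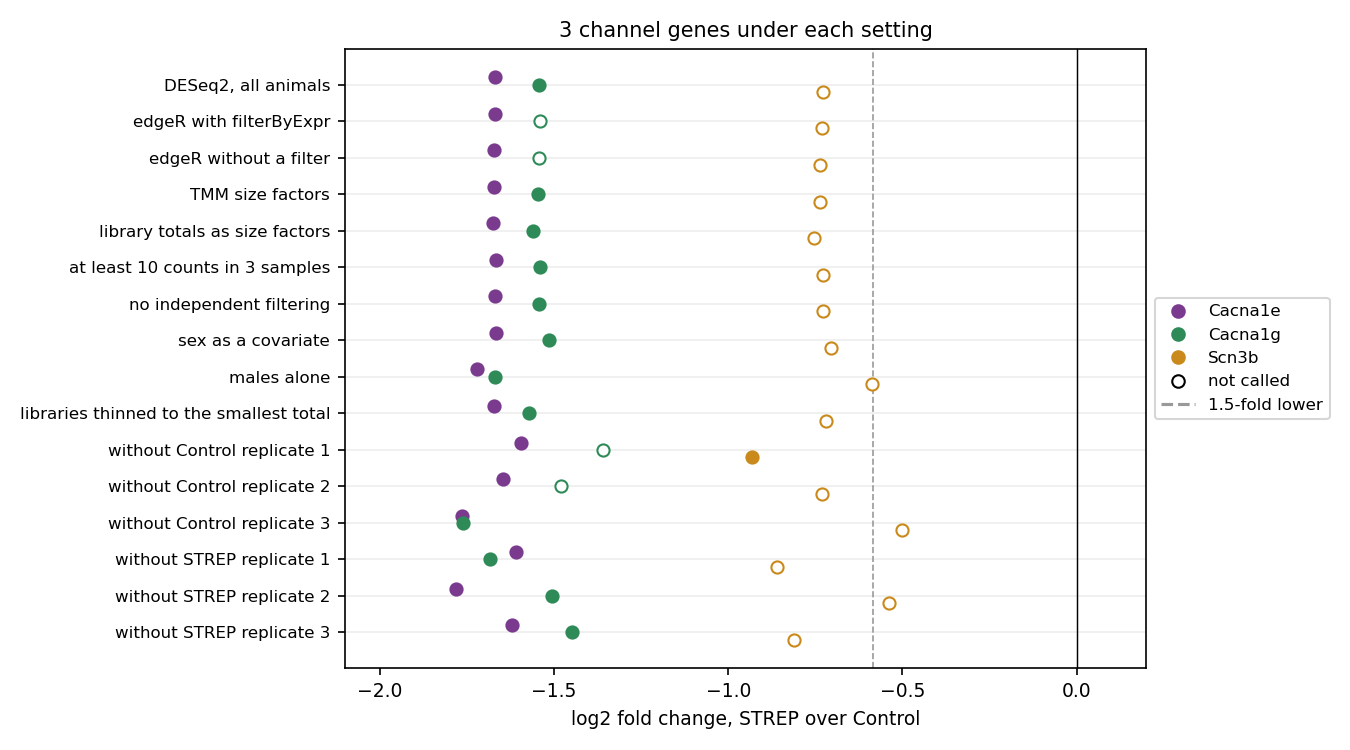
Log2 fold change of STREP over Control for Cacna1e, Cacna1g and Scn3b under each test, scaling, filter and choice of animals (y axis), with filled points where the gene was called and open points where it was not, and a dashed line at 1.5-fold lower. Cacna1e was called under all 16 of them, Cacna1g was not called under edgeR or without Control replicate 1 or 2, and Scn3b was called only without Control replicate 1.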

How the data were processed

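RNA was sequenced with a low-input, full-length protocol without molecular identifiers or strand. The authors aligned reads with STAR 2.5.3a and estimated counts per gene with RSEM 1.3.0, versions as the submitters' processing notes give them, on the Rnor6.0 genome. They deposited 1 table of expected counts for 32883 genes, without scaling, and 0 values were not whole. Library totals were 29333584 to 59906048 counts. Groups came from the labels, replicates were numbered in accession order, and p-values weigh the difference between groups against the modelled spread between animals.

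Counts were fitted over all genes in R 4.3.3 with DESeq2 1.42.0 (size factors by median of ratios, no term but group, independent filtering at 0.05, Benjamini-Hochberg adjustment). Alternatives were edgeR 4.0.16 with and without its filter, males alone, sex as a covariate, other size factors, a minimum of 10 counts in 3 samples, fitting without independent filtering, thinned libraries and each animal left out. The procedure was tested on simulated data. The members and lists were chosen with earlier results of these data known. Genes named were called members, the member with most counts in each role, members with a mean of at least 50 whose groups did not overlap (3 at either end), members with 0 counts, channels known from HCs and calyces, and called or most abundant partners. Symbols matched the table as given. Some genes that this rule names are not reported here. RefSeq (GRCr8) gave gene order and promoters.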

Additional observations from a re-analysis of the deposited data

How the results depend on the processing

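The 95% intervals of all tested members except 2 reached beyond a 1.5-fold change in at least 1 direction, so with 3 animals a group this depth leaves most members without a call unresolved at that size. Both edgeR fits called 1 member where DESeq2 called 2, and 1 partner gene where DESeq2 called 3. Leaving out 1 animal gave 1 to 3 members called, 1 without Control replicate 2 and 3 without Control replicate 1. The same fits gave 2 to 5 partner genes, with 5 without STREP replicate 3, and males alone gave 6. Of all tested genes, DESeq2 called 424 of 16414 without Control replicate 2 and 501 of 16033 without Control replicate 1. It called 471 of 16109 without STREP replicate 3 and 404 of 15217 in males alone. The median log2 fold change of members was -0.17 at a mean of at least 100, against 0.31 at a mean of at least 10, and 0.0869 to 0.467 with 1 animal left out. Over all genes DESeq2 called 527, edgeR 264 with its filter and 210 without, and DESeq2 309 with library totals as size factors. The cause was not tested.

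Log2 fold changes of genes without a call that changed sign were, in males alone, -0.14 for Atp1b3, 0.34 for Cacna1c, 0.057 for Cacna1h and 0.19 for Scn1a. Cacna1c was 0.028 with library totals as size factors, and Cacnb3 was -0.012 in thinned libraries. With 1 animal left out, ranges that crossed 0 were -0.13 to 0.31 for Atp1b3, -1.65 to 1.60 for Cacna1b and -0.50 to 0.23 for Cacna1c. They were -1.06 to 1.63 for Cacna1h, -0.91 to 0.25 for Cacna2d4, -0.11 to 0.20 for Cacnb3, -0.57 to 0.084 for Scn1a, -0.015 to 0.60 for Scn3a and -0.60 to 1.11 for Scn9a. Of 259 values under the other settings, 248 kept their direction and side of the threshold, as did 150 of 174 with 1 animal left out. No paired analysis was possible because replicate numbers were given in accession order and pair no animals.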

Other observations

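Cacna1i, the remaining T-type pore gene, is annotated in the table as a processed transcript and so was no member. It stood at 30.7, 14.5 and 14.6 normalised counts in Control and 0, 18.4 and 15.0 in STREP animals, groups that overlapped (log2 fold change -0.84, SE 1.17, DESeq2 adjusted p = 0.901).

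The effect of streptomycin was also compared between the sexes with an interaction term. Of the 21 members given an adjusted p by DESeq2, 0 had a value under 0.05 (the smallest was 0.573), while 34 genes did in the whole table. An unadjusted p under 0.05 was found for 3 of the 21, without a share over all genes to set beside it. Each group held 1 female, so any such difference would rest on 2 animals.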
